A study of Mus musculus with 4 samples.

Results

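The 9 genes described here encode molecules that let leukocytes leave the blood and settle in the gut wall. They were taken by gene symbol from the 55450 genes of the deposited matrices: Icam1, Vcam1, Madcam1, Sele, Selp, Ackr1, Itga4, Itgb7 and Itgae, each with 1 row. The study measured single-cell RNA from the middle part of the colon of specific-pathogen-free mice aged 7 weeks. The DSS group drank 3% dextran sulfate sodium (DSS, a polymer that injures the colonic epithelium) for 2 days, and the control group drank clean water. Each group has 2 libraries, named DSS 1, DSS 2, control 1 and control 2. The sources used here name no strain, sex or genotype. Nor do the labels state whether each library is a different mouse, so a p-value below reflects library-to-library spread that may be technical only.

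Leukocytes first roll along the wall of small veins on selectins, then arrest when their integrins bind immunoglobulin-family ligands, and then cross the vessel. In the gut the endothelial ligand is MAdCAM-1, product of Madcam1, which binds the integrin made of the alpha4 chain (Itga4) and the beta7 chain (Itgb7). The alpha4 chain also pairs with beta1 and then binds VCAM-1 (Vcam1). ICAM-1 (Icam1) is bound by beta2 integrins, and E-selectin (Sele) and P-selectin (Selp) carry the rolling step. Ackr1 encodes an atypical chemokine receptor of venous endothelium and red cell precursors that binds chemokines without classical signalling. The alphaE chain (Itgae, CD103) pairs with beta7 and binds E-cadherin on epithelial cells.

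Promoters of 4 endothelial ligands (Madcam1, Icam1, Sele and Selp) are printed to show the inflammatory motif classes, named for the factors NF-kappaB and AP-1, that lie next to their start sites. Sequences come from the RefSeq promoter table of build GRCm38.p6, which held 7 of the 9 genes, the others being Vcam1 and Itgae. Each runs 5′ to 3′ on the gene's strand, from 250 bases before the annotated start to 50 after it. Capitals mark motif matches.
Madcam1: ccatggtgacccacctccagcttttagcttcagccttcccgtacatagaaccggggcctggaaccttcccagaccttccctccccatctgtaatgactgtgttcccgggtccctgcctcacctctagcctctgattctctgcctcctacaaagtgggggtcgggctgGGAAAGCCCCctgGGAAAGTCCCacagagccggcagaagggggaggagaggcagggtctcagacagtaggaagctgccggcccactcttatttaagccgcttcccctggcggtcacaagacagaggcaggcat
Icam1: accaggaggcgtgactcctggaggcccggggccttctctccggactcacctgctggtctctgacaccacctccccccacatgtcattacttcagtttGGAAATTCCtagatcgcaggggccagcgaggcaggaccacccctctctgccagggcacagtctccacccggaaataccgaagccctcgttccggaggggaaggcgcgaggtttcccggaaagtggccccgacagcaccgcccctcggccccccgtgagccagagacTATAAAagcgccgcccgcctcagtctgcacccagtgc
Sele: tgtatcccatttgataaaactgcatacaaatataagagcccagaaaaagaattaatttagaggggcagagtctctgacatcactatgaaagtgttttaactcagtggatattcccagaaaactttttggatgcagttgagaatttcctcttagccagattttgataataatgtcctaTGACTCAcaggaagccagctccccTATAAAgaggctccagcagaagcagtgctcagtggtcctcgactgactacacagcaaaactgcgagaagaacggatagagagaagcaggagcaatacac
Selp: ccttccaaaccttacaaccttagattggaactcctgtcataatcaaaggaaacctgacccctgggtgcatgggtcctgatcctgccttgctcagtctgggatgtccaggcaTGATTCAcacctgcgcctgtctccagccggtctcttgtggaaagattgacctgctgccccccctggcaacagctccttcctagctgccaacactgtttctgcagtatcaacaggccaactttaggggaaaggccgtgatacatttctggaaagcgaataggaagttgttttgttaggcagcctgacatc
The 4 windows are chr10:79664309-79664608, chr9:21015690-21015989, chr1:164047984-164048283 and chr1:164115014-164115313, all on the plus strand. Both strands were searched, and positions count the RefSeq start as 0. The Madcam1 window held 2 matches to the kappaB consensus, the sequence class bound by NF-kappaB, at -83 to -74 and at -70 to -61, both read on the minus strand. The Icam1 window held GGAAATTCC at -153 to -145, a match to the kappaB form GGAANTTCC, and TATAAA at 13 to 18. The Sele window held TGACTCA at -73 to -67, a match to the AP-1 form TGANTCA, and TATAAA at -49 to -44. The Selp window held TGATTCA at -139 to -133. Of 32851 promoters of this length, 8.46% held the kappaB consensus, 0.928% held GGAANTTCC, 7.81% held TGANTCA and 13.6% held TATAAA. These are matches of letters, not measured sites. Only these patterns were searched, so a window without a match may hold another form of the motif.

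The files held between 10966 and 13093 barcodes per library, with 101051573 to 109472082 UMIs, where a UMI (unique molecular identifier) marks 1 captured RNA molecule. Cells that passed the filters fell into 37 clusters. Predicted doublets were removed, as were 4 clusters made mostly of them, which left 42169 cells. Of the other clusters 2 stayed unnamed and the rest gave 21 classes, of which 14 had at least 30 cells in every library and were tested. Markers fixed for each cell type named all these classes but cluster 6, which was kept by number: it met 7 macrophage markers but was led by Retnla, Ccl17 and Cd209a, the last a dendritic cell marker. The 6 pairs of libraries shared 36 to 52 barcodes, whose origin was not tested. Levels are given as CPM, counts per 1e6: the UMIs of a gene per 1e6 UMIs of that class in that library. The kit counts molecules from their 3-prime end, so levels were not divided by gene length.

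The 9 genes divided into a set of vessel genes, a set of broadly stromal and macrophage genes, and a set of leukocyte genes. Blood endothelial cells, 330 cells in all, held 427 of the 486 Madcam1 UMIs (87.9%), 147 of 218 Selp UMIs (67.4%) and 34 of 53 Sele UMIs (64.2%). Fibroblasts held 54.2% of the 15076 Icam1 UMIs and 54.5% of the 11364 Vcam1 UMIs, and macrophages a further 30.3% of Vcam1. Plasma cells held the greatest share of Itga4 UMIs (26.3% of 17129) and of Itgb7 UMIs (36.7% of 6748). T cells held 44.7% of the 1778 Itgae UMIs and cluster 6 held 42.5%. Most Ackr1 UMIs were not vascular: fibroblasts held 1136 of its 1487 UMIs (76.4%), blood endothelial cells 139 (9.35%) and neurons 69 (4.64%). These shares follow how many cells of a class were captured as well as the level in each cell.

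**Figure D1:**
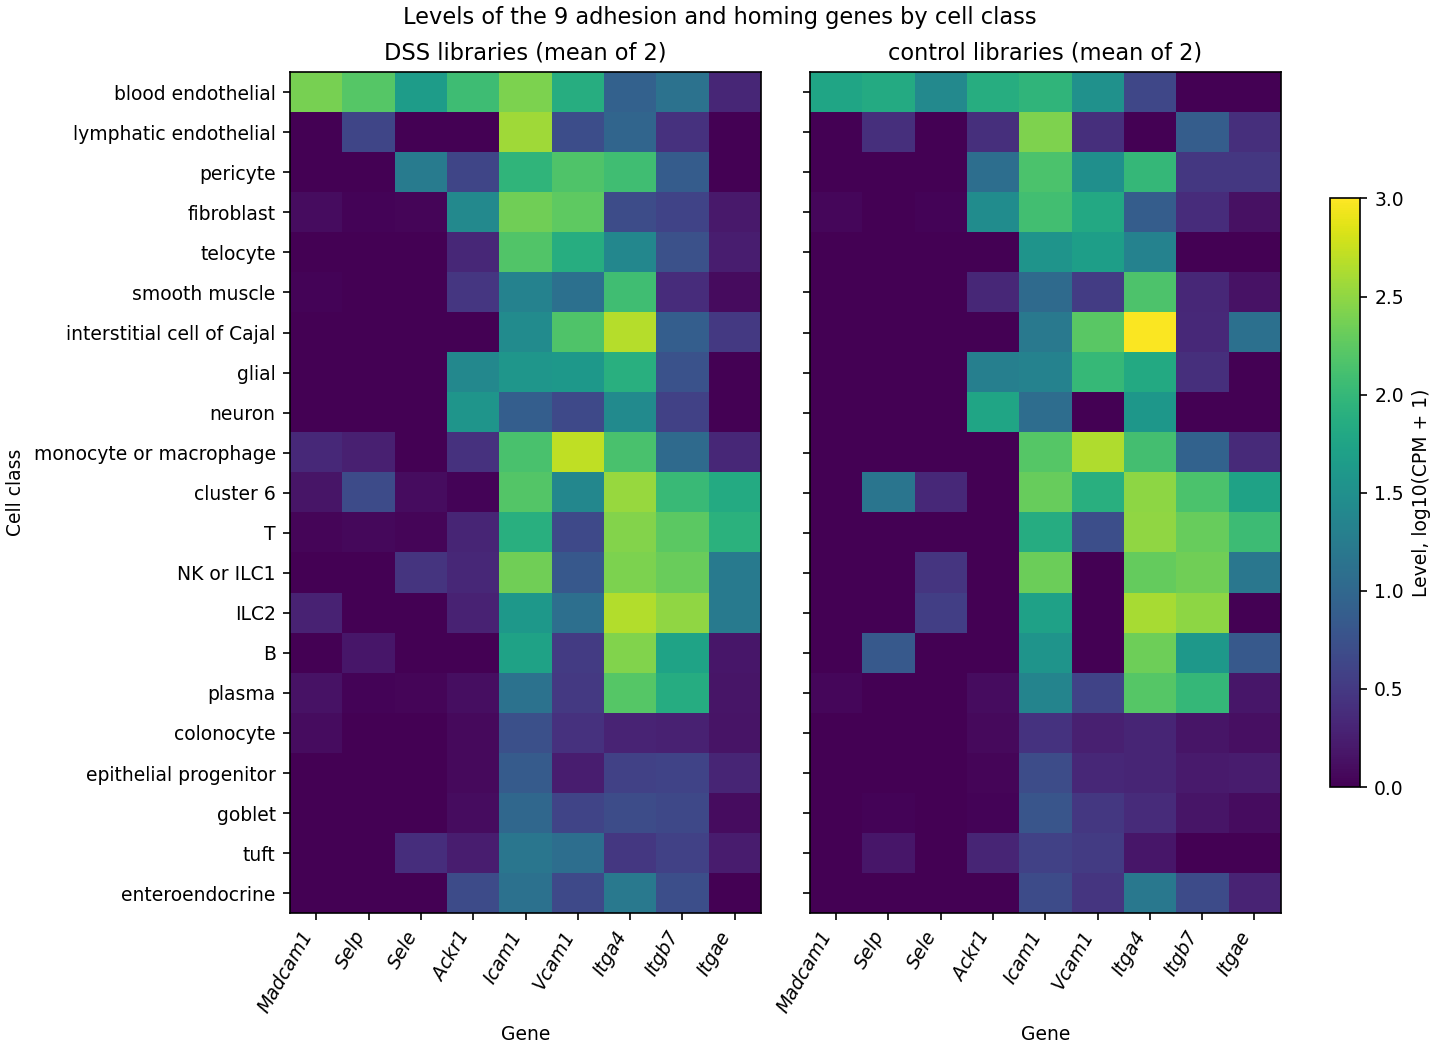
Mean level of each of the 9 genes in each cell class, as log10(CPM + 1), over the 2 DSS libraries (left) and the 2 control libraries (right). Madcam1, Selp, Sele and Ackr1 are brightest in blood endothelium, Vcam1 in macrophages and Itgae in T cells and cluster 6; control 2 holds only 1 blood endothelial cell, with 0 UMIs of all 9 genes, which lowers the control means of that row.

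The blood endothelial class met all 9 of its markers but held 209 cells in DSS 1, 32 in DSS 2, 88 in control 1 and 1 in control 2, so it was described without a test. Madcam1 stood at 416 CPM in DSS 1 and 65.9 CPM in DSS 2, against 113 CPM in control 1. The DSS libraries lay on both sides of the control value. Selp stood at 92.5 and 231 CPM in DSS 1 and DSS 2, against 133 CPM in control 1. Sele stood at 12.9 and 76.8 CPM in the DSS libraries, against 49.9 CPM in control 1. Ackr1 stood at 88.2 and 143 CPM in the DSS libraries, against 146 CPM in control 1, on 82, 13 and 44 UMIs. DSS 2 thus lay close to control 1. Venous-like cells, described below, made up 8.61% and 9.38% of the class in the DSS libraries, against 20.5% in control 1. The part of this in the class levels was not tested. Icam1 stood at 110 and 406 CPM in the DSS libraries, against 183 CPM in control 1, and Vcam1 at 36.6 and 110 CPM, against 63.2 CPM. For both the DSS libraries lay on either side of the control value. All 6 genes had 0 UMIs in the single control 2 cell, a count that allows up to 5455 CPM and so says nothing about their level.

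Within the class the vessel genes sat in 1 small sub-cluster. Sub-clustering without any of the 9 genes among the variable genes gave 6 groups, and 3 of them carried markers of a vessel type. The venous-like group (39 cells, 5 of 6 venous markers) held 416 of the 427 Madcam1 UMIs of the class (97.4%), 145 of 147 Selp UMIs (98.6%), 137 of 139 Ackr1 UMIs (98.6%) and 33 of 34 Sele UMIs (97.1%). It also held 84.1% of the Vcam1 UMIs and 61.3% of the Icam1 UMIs of blood endothelium. Pooled over libraries, its levels were 2228 CPM for Madcam1, 776 CPM for Selp, 734 CPM for Ackr1, 177 CPM for Sele, 637 CPM for Icam1 and 284 CPM for Vcam1. The arterial-like group (40 cells, 5 of 6 markers) had 164 CPM of Icam1, 21.3 CPM of Vcam1 and no UMI of the other 4. The capillary-like group (33 cells, 4 of 6 markers) had 63.7 CPM of Icam1 and no UMI of the other 5. In DSS 1, 0 UMIs allow up to 33.8 CPM of Madcam1 in arterial-like cells (sub-cluster blood endothelial 3) and up to 19.7 CPM in capillary-like cells (sub-cluster blood endothelial 5). The other sub-clusters, of 83, 78 and 57 cells, were led by Iglc1, Rgs5 and Sycn, genes of plasma cells, pericytes and epithelium, and stayed unnamed. Since a sub-cluster is made from the same cells, these shares are a description with no test.

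**Figure D2:**
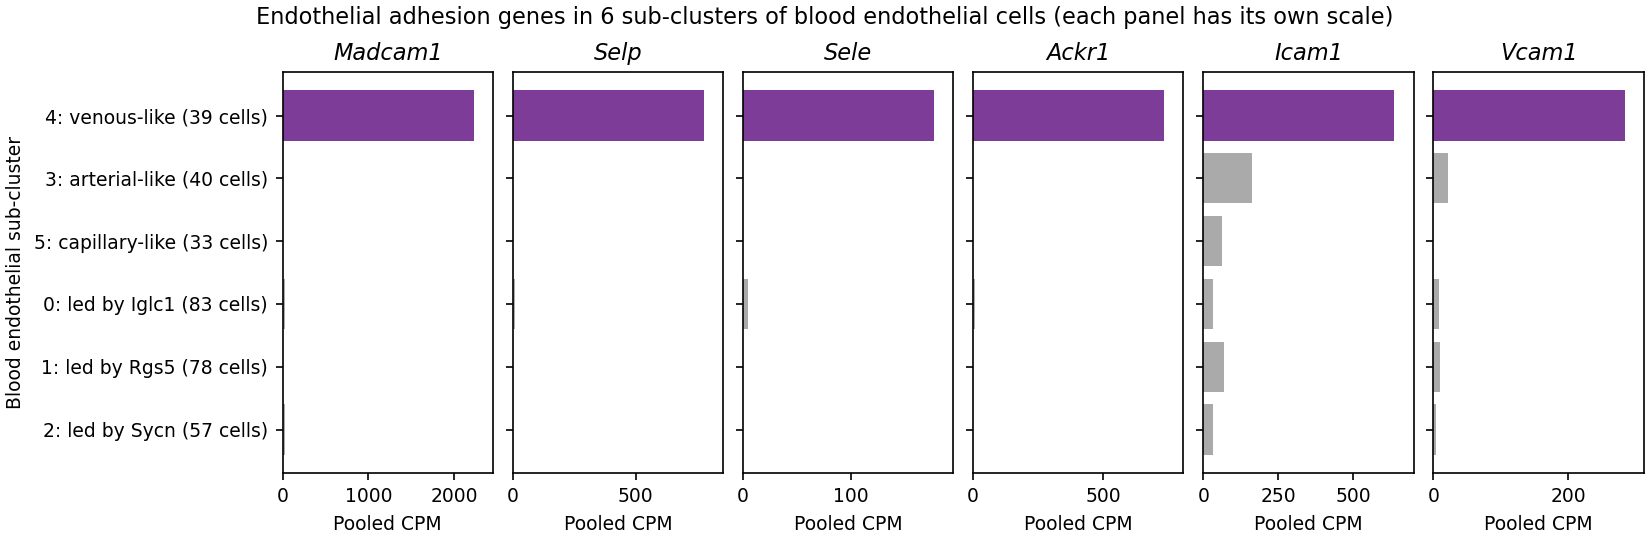
Level of 6 endothelial adhesion genes, in CPM pooled over libraries, in the 6 sub-clusters of blood endothelial cells, with a scale of its own for each gene. The venous-like bar stands at 2228 CPM for Madcam1 while the arterial-like and capillary-like bars are at 0; only Icam1 has bars in all 6 sub-clusters at 31.6 CPM or more.

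Cell by cell, the high Madcam1 sum of DSS 1 rested on few cells. Venous-like cells numbered 18 in DSS 1, 3 in DSS 2 and 18 in control 1, which is 8.61%, 9.38% and 20.5% of the blood endothelial cells of those libraries (exact 95% binomial intervals 5.18 to 13.3%, 1.98 to 25% and 12.6 to 30.4%, counting error only). Madcam1 UMIs were found in 11 of 18 cells in DSS 1 and 1 of 3 in DSS 2, against 10 of 18 in control 1. The median cell had 2 Madcam1 UMIs in DSS 1 and 0 in DSS 2, against 1 in control 1. A single DSS 1 cell held 252 of the 381 Madcam1 UMIs of the DSS 1 venous-like cells, and the next cell held 40. That cell also held all 493 UMIs of Glycam1, a mucin ligand of L-selectin made by high endothelial venules, and the other 38 venous-like cells held 0. Glycam1 belongs to the list of further homing genes, and its place in that cell was looked up after the values were seen. In all, 5 cells had at least 10 Madcam1 UMIs, and all 5 were in DSS 1. The highest cell had 6 Madcam1 UMIs in DSS 2 and 7 in control 1. Such counts rise with depth: over all genes those 5 cells held 6514 to 17135 UMIs each. The deepest venous-like cell of control 1 held 6123. The part of depth in this contrast was not tested. Over venous-like cells, Madcam1 came to 3466 CPM in DSS 1 and 753 CPM in DSS 2, against 421 CPM in control 1. Without the highest cell of each library it came to 1390 CPM in DSS 1 and 0 CPM in DSS 2, where 1 cell held all 6 UMIs, against 346 CPM in control 1.

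Over all 39 venous-like cells Madcam1 and Selp were found in 22 each, Ackr1 and Icam1 in 27 each, Vcam1 in 17 and Sele in 8. Selp was found in 11 of 18 cells in DSS 1 and 2 of 3 in DSS 2, against 9 of 18 in control 1. Ackr1 was found in 14 of 18 and 2 of 3 cells in the DSS libraries, against 11 of 18 in control 1. Icam1 was found in 12 of 18 and 3 of 3 cells in the DSS libraries, against 12 of 18 in control 1. Sele was found in 3 of 18 and 3 of 3 cells in the DSS libraries, against 2 of 18 in control 1, where 1 cell held 14 of its 15 UMIs. None of the 39 cells held a UMI of Itga4 or Itgae, and 1 held a UMI of Itgb7.

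**Figure D3:**
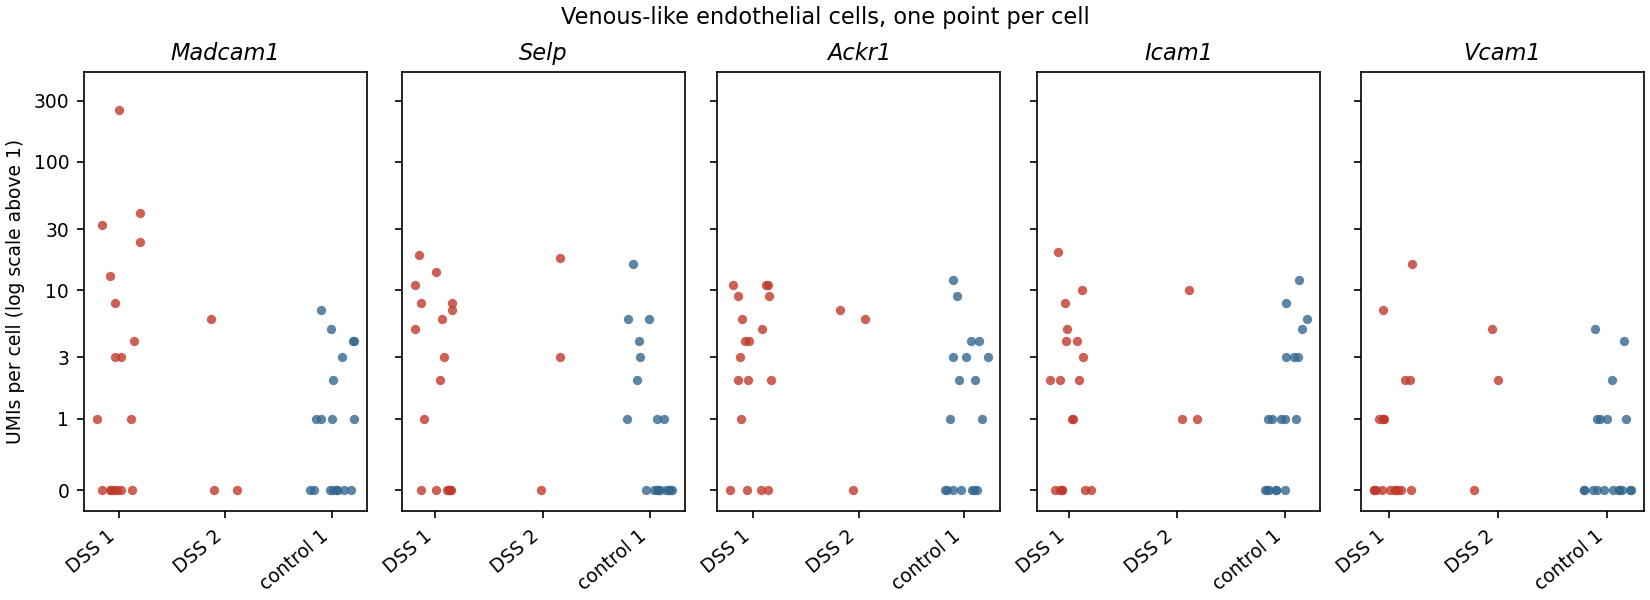
UMIs of each gene in every venous-like endothelial cell of DSS 1 (18 cells), DSS 2 (3 cells) and control 1 (18 cells), 1 point per cell, on an axis that is logarithmic above 1. One DSS 1 cell stands at 252 Madcam1 UMIs and the highest control 1 cell at 7, while Selp, Ackr1 and Icam1 points overlap between DSS 1 and control 1.

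Blood and lymphatic endothelium were tested together as 1 compartment, which has cells in all 4 libraries. No member was called there by edgeR's quasi-likelihood test with Benjamini-Hochberg adjustment over 6721 genes, of which 0% were called. Madcam1 had 254 CPM in DSS 1 and 24.7 CPM in DSS 2, against 54.9 CPM in control 1 and 0 CPM in control 2. Its log2 fold change was 2.03 (SE 0.99, unadjusted p = 0.0728, adjusted p = 1, edgeR). Without DSS 1 it was -0.73, so that library decided its direction, and without DSS 2 it was 2.88. Each of these fits leaves 1 library in a group, so only the effect size is given. Over the 4 compartments (endothelial, stromal, immune, epithelial) 0 of 24 tests of members passed, 0 had an unadjusted p under 0.05, beside 3.41% of all genes over the compartments, and DESeq2 called 0. Among all genes 0.0113% were called in the epithelial compartment and 0% in the other 3. Outside blood endothelium there were 59 Madcam1 UMIs, 54 of them in DSS 1. DSS 1 also had the largest share of B cells, 6.06% of its kept cells, against 0.616% in DSS 2, 1.51% in control 1 and 0.306% in control 2. The part of cell shares and free RNA in these counts was not tested.

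Lymphatic endothelium, whose vessels carry cells out of the tissue, had Icam1 as its only member above 20 CPM. Icam1 stood at 183 CPM in DSS 1 and 559 CPM in DSS 2, against 122 CPM in control 1 and 408 CPM in control 2. The groups overlapped, and in both groups the library numbered 2 was the higher one. Control 2 held 18 lymphatic cells, so the class was not tested. Pericytes, the contractile cells around small vessels, had Icam1 at 116 and 66.7 CPM in the DSS libraries, against 164 and 117 CPM in control libraries, on 20 and 37 UMIs per group. Their Vcam1 stood at 25.8 and 267 CPM in the DSS libraries, against 18.2 and 41.7 CPM in control libraries, on 23 UMIs in all. Their Itga4 stood at 38.8 and 200 CPM, against 36.4 and 163 CPM, on 53 UMIs in all. Pericytes numbered 47 and 12 in DSS 1 and DSS 2, against 22 and 89 in control 1 and control 2, and were not tested.

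Over the 14 tested classes, 0 of 50 tests of a member passed edgeR's quasi-likelihood test after Benjamini-Hochberg adjustment. Of these, 5 had an unadjusted p under 0.05: Icam1 in telocytes, Vcam1 in cluster 6 and in smooth muscle, and Itga4 and Itgb7 in goblet cells, beside 6.61% of all gene-by-class tests. DESeq2 called 1, Itgb7 in goblet cells, where it called 3.54% of all genes. That gene stood at 5.62 and 1.45 CPM in DSS libraries, against 0.41 and 0.57 CPM in control libraries. Among all genes the share called by edgeR was 0% in 10 of the classes, 0.00999% in plasma cells, 0.0168% in NK or ILC1 cells, 0.0466% in telocytes and 1.33% in epithelial progenitors. Of 34 pairs of a member and a tested class with at least 20 CPM, both DSS libraries lay above both control libraries in 3 and below in 6, and the groups overlapped in 25. Over the same classes, 12.5% of all gene-by-class pairs had both DSS libraries above and 19.6% below, with 3.36% to 29% above and 10.6% to 32% below in single classes.

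Fibroblasts carried most Icam1 and Vcam1 of the tissue, and both genes had higher mean levels after DSS without passing the test. Fibroblast Icam1 stood at 152 CPM in DSS 1 and 293 CPM in DSS 2, against 81.6 CPM in control 1 and 165 CPM in control 2. The groups overlapped, because DSS 1 lay under control 2. The log2 fold change was 0.95 (SE 0.48, unadjusted p = 0.0927, adjusted p = 1, edgeR). Fibroblast Vcam1 stood at 66.9 and 291 CPM in DSS libraries, against 42.7 and 85.1 CPM in control libraries, a log2 fold change of 1.59 (SE 0.71, unadjusted p = 0.0673, adjusted p = 1). DSS 2 stood far above the other 3 libraries for Vcam1, and without it the log2 fold change was 0.21. Without DSS 2 that of Icam1 was 0.45. Both DSS libraries lay above both control libraries in 5.56% of the genes tested in fibroblasts, and neither Icam1 nor Vcam1 was among them.

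The same genes differed by kind of fibroblast. Cluster 9 was led by Igfbp3, Adamdec1 and Cxcl13, the last 2 known from lamina propria fibroblasts, and it carried the highest levels of both. Its Icam1 stood at 302 and 582 CPM in DSS 1 and DSS 2, against 141 and 206 CPM in control 1 and control 2. Its Vcam1 stood at 151 and 680 CPM in the DSS libraries, against 100 and 132 CPM in the control libraries. In cluster 9 the groups did not overlap for either gene, as for 8.07% of all genes there. The log2 fold change was 1.49 for Icam1 (SE 0.41, unadjusted p = 0.00527, adjusted p = 0.579, edgeR) and 1.97 for Vcam1 (SE 0.60, unadjusted p = 0.00886, adjusted p = 0.722). Neither passed the adjusted threshold. Vcam1 depended on DSS 2: without that library its log2 fold change was 0.58, and without DSS 1 it was 2.64. Cluster 9 lies within the fibroblast class, and the clusters were chosen for fitting after the class values were seen. Over 9 single clusters, 0 of 25 tests of members passed in edgeR, 6 had an unadjusted p under 0.05, beside 2.26% of all genes over these clusters, and DESeq2 called 0. The share of all genes called was 0.026% in cluster 19 and 0% in the others fitted.

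The other fibroblast clusters had lower levels and more overlap. Cluster 1, led by Tnfaip6, Has1 and Gfpt2 and holding Pi16, had Icam1 at 65.8 and 260 CPM in DSS libraries, against 40.6 and 131 CPM in control libraries. DSS 2 gave 2262 of its cells and DSS 1 only 242, against 190 in control 1 and 547 in control 2. Its Vcam1 stood at 48.4 and 290 CPM in DSS libraries, against 43.9 and 88.8 CPM in control libraries. Cluster 2, led by Inmt, Apod and Cilp, had Vcam1 at 73.4 and 152 CPM in DSS libraries, against 38 and 61.4 CPM in control libraries, with no overlap (log2 fold change 1.23, SE 0.38, unadjusted p = 0.0109, adjusted p = 1, edgeR). Cluster 11, led by Kcnn3 and Fibin, had little Vcam1, and its Icam1 stood at 98.1 and 125 CPM in DSS libraries, against 37.1 and 68.3 CPM in control libraries (log2 fold change 1.28, SE 0.36, unadjusted p = 0.00647, adjusted p = 1). Without control 2 that value was 1.58, from a fit with 1 control library. Both DSS libraries lay above both control libraries in 7.73% of genes in cluster 2 and in 10.2% in cluster 11.

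Ackr1 in fibroblasts was mostly a gene of cluster 1. There it stood at 60.4 and 51.2 CPM in DSS libraries, against 72.9 and 65.0 CPM in control libraries, both DSS values being the lower ones, as for 20.8% of genes in that cluster. The log2 fold change was -0.20 (SE 0.26, unadjusted p = 0.477, adjusted p = 1, edgeR). Over all fibroblasts Ackr1 stood at 13.4 and 36.1 CPM in DSS libraries, against 19.5 and 35.6 CPM in control libraries, with a log2 fold change of -0.05 (SE 0.53). Enteric neurons had 31.8 and 38.8 CPM in DSS libraries, against 39.1 and 74.8 CPM in control libraries, on 48 and 21 UMIs per group. Glial cells had 28.6 and 19.6 CPM in DSS libraries, against 15.4 and 21.8 CPM in control libraries. Ackr1 overlaps Cadm3 on the same strand, a gene of neural cell adhesion, and how reads in the shared stretch were assigned could not be told from the counts.

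The telocyte class, subepithelial stromal cells that make Bmp and Wnt ligands, showed the widest gap for Icam1 among the tested classes. Icam1 stood at 74.9 CPM in DSS 1 and 226 CPM in DSS 2, against 9.02 CPM in control 1 and 61.3 CPM in control 2. Both DSS libraries lay above both control libraries, as for 13.8% of genes in this class. Cells with an Icam1 UMI made up 27.3% and 43.8% of telocytes in DSS libraries, against 3.19% and 12.3% in control libraries. Median depth was also higher, at 6036 and 4482 UMIs in DSS libraries, against 3412 and 3703 UMIs in control libraries. With each cell thinned to 1000 UMIs, and cells with fewer left out, the shares were 5.96% and 16.4% in DSS libraries, against 1.11% and 5.56% in control libraries. The log2 fold change was 2.20 (SE 0.71, unadjusted p = 0.0142, adjusted p = 0.33, edgeR), so the call failed over the 8587 genes tested. Leaving out 1 library at a time gave 1.35 to 4.10. The value was 2.74 without DSS 1, 1.35 without DSS 2, 1.42 without control 1 and 4.10 without control 2. Each such fit leaves 1 library in a group and measures no spread within it, so only the effect size is given. Markers of plasma cells moved with it in the telocyte class, the 6 genes of that list summing to 11279 and 6995 CPM in DSS libraries, against 331 and 2277 CPM in control libraries. Markers of macrophages, which also carry Icam1, summed to 85.1 and 50.0 CPM there in DSS libraries, against 27.1 and 108 CPM in control libraries. Their part in the result was not tested. Telocyte Vcam1 stood at 32.7 and 115 CPM in DSS libraries, against 15 and 78.8 CPM in control libraries, and the groups overlapped.

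In fibroblasts the macrophage markers summed to 104 and 29.5 CPM in DSS libraries, against 23.9 and 56.4 CPM in control libraries. The plasma markers summed to 4437 and 1220 CPM in DSS libraries, against 423 and 2375 CPM in control libraries. Their part in the fibroblast values was not tested. Median depth of fibroblasts was 4853 and 3769 UMIs in DSS libraries, against 3616 and 4835 UMIs in control libraries.

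**Figure D4:**
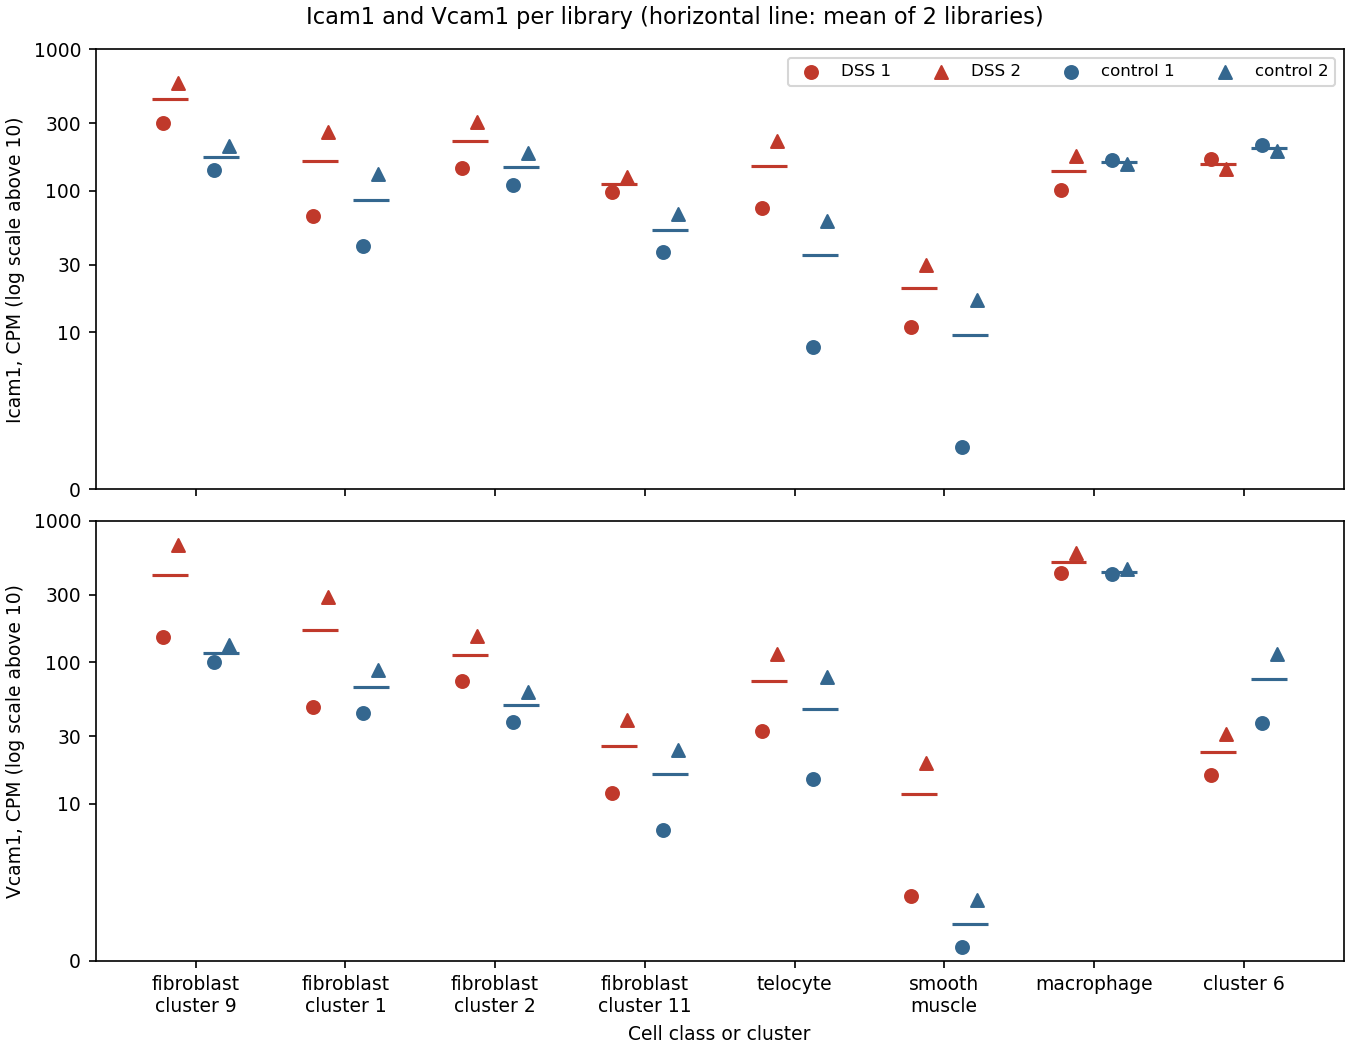
Icam1 (top) and Vcam1 (bottom) in CPM per library for 4 fibroblast clusters, telocytes, smooth muscle, macrophages and cluster 6, on an axis that is logarithmic above 10; DSS points are red, control points blue and a line marks the mean of 2 libraries. Fibroblast clusters 9 and 11 and telocytes show both DSS points above both control points for Icam1, and macrophage Vcam1 points of both groups lie together between 421 and 594 CPM.

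Macrophages had the highest Vcam1 level of any tested class, and DSS 1, control 1 and control 2 lay close together. Vcam1 stood at 424 CPM in DSS 1 and 594 CPM in DSS 2, against 421 CPM in control 1 and 454 CPM in control 2. The log2 fold change was 0.16 (SE 0.36, unadjusted p = 0.674, adjusted p = 1, edgeR), and its sign turned with the clustering. Macrophage sub-clusters were unevenly spread over libraries: sub-cluster myeloid 9 made up 81.1% of macrophages in control 1 and myeloid 0, led by the epithelial genes Mptx1 and Spink4, 83.3% in control 2. Vcam1 was highest in sub-cluster myeloid 8 (195 cells, led by Ccl8, Slc40a1 and Folr2), at a pooled 1243 CPM, and lay between 309 and 502 CPM in the other 3 sub-clusters named macrophage. Slc40a1 encodes the iron exporter of cells, and Spic, also among its leading genes, a transcription factor of iron-handling splenic macrophages. Between T cells and macrophages the DSS effect differed for 0 of 5 members in an edgeR interaction test, where 0% of 9700 genes were called. Macrophage Icam1 stood at 102 and 175 CPM in DSS libraries, against 165 and 155 CPM in control libraries.

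Cluster 6 moved the other way in value, together with its makeup. Its Vcam1 stood at 15.9 and 30.8 CPM in DSS libraries, against 37.1 and 115 CPM in control libraries (log2 fold change -1.68, SE 0.56, unadjusted p = 0.0214, adjusted p = 1, edgeR). Without control 2 it was -0.64. Sub-cluster myeloid 0 had a pooled Vcam1 level of 308 CPM over its cells in both cluster 6 and the macrophage class, not in cluster 6 alone. It made up 0.535% and 4.27% of cluster 6 in DSS libraries, against 21.9% and 67.3% in control libraries. Sub-cluster myeloid 1, led by Chil3 and Thbs1, shifted the other way. It made up 21.1% and 33.2% of cluster 6 in DSS libraries, against 2.08% and 2.04% in control libraries. The part of this makeup in the result was not tested. Icam1 in cluster 6 stood at 168 and 142 CPM in DSS libraries, against 210 and 192 CPM in control libraries, with a log2 fold change of -0.29 (SE 0.34). Selp, also known as a platelet and megakaryocyte protein, had 44 UMIs in cluster 6 (1.78 and 5.80 CPM in DSS libraries, against 19.8 and 7.73 CPM in control libraries) and was highest there in sub-clusters myeloid 3 and myeloid 6, at 9.9 and 9.5 CPM. Both DSS libraries lay below both control libraries for Vcam1, Icam1, Itgb7 and Selp, as for 17.3% of genes in cluster 6. The DSS effect in cluster 6 was set against that in T cells, telocytes and B cells, and that in plasma cells against B cells, by the same kind of test. No member passed, and the shares of all genes called were 0%, 0.0351%, 0.154% and 0.296%.

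Among lymphocytes, Icam1 was highest in NK or ILC1 cells, at 229 and 215 CPM in DSS libraries, against 192 and 224 CPM in control libraries, and the groups overlapped. T cell Icam1 stood at 74.3 and 77.8 CPM in DSS libraries, against 68.7 and 73.6 CPM in control libraries, with a log2 fold change of 0.14 (SE 0.32), a gap smaller than its error, although the groups did not overlap, as for 8.36% of genes with higher DSS values in T cells. B cell Icam1 stood at 46.4 and 59.0 CPM in DSS libraries, against 21.3 and 47.2 CPM in control libraries, and ILC2 Icam1 at 28.6 and 49.0 CPM, against 33.7 and 68.3 CPM.

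The alpha4 chain was expressed across leukocytes. Itga4 stood in ILC2 at 378 and 527 CPM in DSS libraries, against 314 and 483 CPM in control libraries. T cells had 243 and 303 CPM in DSS libraries, against 237 and 400 CPM in control libraries. Cluster 6 had 314 and 378 CPM in DSS libraries, against 217 and 391 CPM in control libraries. In each of these classes the groups overlapped. The same held for B cells (165 and 380 CPM in DSS, against 163 and 272 CPM in control libraries), NK or ILC1 cells (167 and 340, against 192 and 194 CPM), plasma cells (109 and 208, against 132 and 194 CPM) and macrophages (149 and 127, against 109 and 140 CPM). Log2 fold changes of Itga4 in these 7 classes ran from -0.16 to 0.47, each smaller than its SE. Colonocytes, which should lack the gene, had 1.1 CPM pooled. An Itga4 UMI was found in 2.03% and 1.06% of them in DSS libraries, against 0.526% and 1.49% in control libraries, at median depths of 19178 and 14613 UMIs, against 6206 and 8318 UMIs. In T cells the shares were 48.6% and 48.4% in DSS libraries, against 40.4% and 41.1% in control libraries, at the lower median depths of 3273 and 2411 UMIs, against 2589 and 1491 UMIs. Thinned to 1000 UMIs they were 21.9% and 27.3% in DSS libraries, against 19.9% and 33.7% in control libraries, and the groups overlapped.

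Some non-leukocytes carried Itga4 at leukocyte levels. Interstitial cells of Cajal, the pacemaker cells of gut muscle, had 338 and 583 CPM in DSS libraries, against 314 and 1592 CPM in control libraries, the last from 11 cells. They also had Vcam1, the ligand of alpha4beta1, at 105 and 194 CPM in DSS libraries, against 123 and 214 CPM in control libraries. Smooth muscle had Itga4 at 111 and 130 CPM in DSS libraries, against 110 and 182 CPM in control libraries. In smooth muscle cluster 19, led by Hhip and Bdkrb2, Itga4 stood at 84.7 and 81.0 CPM in DSS libraries, against 181 and 184 CPM in control libraries. There the libraries of a group lay close together and the groups did not overlap, as for 16.7% of genes with lower DSS values. The log2 fold change was -1.09 (SE 0.31, unadjusted p = 0.00528, adjusted p = 0.839, edgeR), so it was not called. In smooth muscle cluster 10, led by Pln and Rasl11a, Itga4 overlapped between groups, at 176 and 180 CPM in DSS libraries, against 151 and 204 CPM in control libraries. Glial Itga4 stood at 90.4 and 62.7 CPM in DSS libraries, against 74.1 and 58.1 CPM in control libraries, and glial Vcam1 at 38.1 and 39.2 CPM, against 43.2 and 160 CPM (log2 fold change -1.20, SE 0.60, unadjusted p = 0.0751, adjusted p = 0.999, edgeR). Both DSS values of glial Vcam1 were the lower ones, as for 14.1% of genes, and without control 2 its log2 fold change was -0.13. Smooth muscle Vcam1 stood at 4.15 and 19.4 CPM in DSS libraries, against 0.90 and 3.84 CPM in control libraries (log2 fold change 2.27, SE 0.92, unadjusted p = 0.0468, adjusted p = 1, edgeR). Glial Icam1 stood at 19 and 54.9 CPM in DSS libraries, against 18.5 and 21.8 CPM in control libraries, and that of interstitial cells of Cajal at 23.7 and 30.2 CPM, against 7.19 and 23.8 CPM. Telocyte Itga4 stood at 19.1 and 27.7 CPM in DSS libraries, against 12 and 29.2 CPM in control libraries, and that of neurons at 30.4 and 21.7 CPM, against 33.5 and 42.7 CPM.

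The beta7 chain was narrower than alpha4. Itgb7 stood in ILC2 at 275 and 362 CPM in DSS libraries, against 191 and 420 CPM in control libraries. NK or ILC1 cells had 185 and 227 CPM in DSS libraries, against 162 and 285 CPM in control libraries, and T cells had 175 and 174 CPM, against 164 and 236 CPM. In all 3 the groups overlapped. Plasma cell Itgb7 stood at 66.9 and 74.6 CPM in DSS libraries, against 87.9 and 109 CPM in control libraries, and that of cluster 6 at 103 and 112 CPM, against 138 and 144 CPM. In both the DSS values were the lower ones, with log2 fold changes of -0.22 (SE 0.29) and -0.32 (SE 0.32). In plasma cells 32% of all genes had both DSS libraries lower. B cell Itgb7 stood at 43.8 and 65.6 CPM in DSS libraries, against 42.5 and 35.4 CPM in control libraries, with both DSS values the higher ones, as for 14.8% of genes in B cells. It did not pass the low-count filter. Macrophages had 9.52 and 10.2 CPM in DSS libraries, against 4.78 and 10.7 CPM in control libraries, beside their Itga4 above 100 CPM.

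The alphaE chain was restricted to some T and dendritic cells. T cell Itgae stood at 67.2 and 96.1 CPM in DSS libraries, against 115 and 113 CPM in control libraries. Both DSS libraries were lower, as for 14.1% of genes in T cells, with a log2 fold change of -0.46 (SE 0.34, unadjusted p = 0.211, adjusted p = 1, edgeR). T cell cluster 12, led by Ccl5, Cd7 and Ikzf2, gave 85.5 and 120 CPM in DSS libraries, against 172 and 145 CPM in control libraries (log2 fold change -0.60, SE 0.38, unadjusted p = 0.15, adjusted p = 1). T cell makeup differed by library: sub-cluster lymphocyte 2 made up 43.0% of T cells in DSS 2, lymphocyte 5 made up 23.8% in DSS 1 and 39.6% in control 1, and lymphocyte 3, led by the goblet cell gene Spink4, 71.1% in control 2. The part of this makeup in the Itgae values was not tested. In cluster 6 Itgae overlapped between groups, at 83.6 and 51.9 CPM in DSS libraries, against 34.6 and 71.3 CPM in control libraries.

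Leukocyte sub-clusters differed in their pooled levels of the chains, which do not show whether a single cell holds both chains of a pair. The highest pooled Itgae level, 602 CPM, was in lymphocyte 13, a Cd8 T-like group of 36 cells led by Gzma and Gzmb, with 274 CPM of Itgb7. That group met 3 of 4 Cd8 T markers and also 3 of 5 gamma delta T markers, and Trdc was among its leading genes. The next highest Itgae level was in myeloid 5, a dendritic-like group of 261 cells led by Xcr1, at 260 CPM with 203 CPM of Itgb7 and 473 CPM of Itga4. Myeloid 11, a dendritic-like group of 80 cells led by Fscn1, Serpinb6b and Ccl22 and holding Ccr7, the receptor that guides dendritic cells to lymph nodes, had the highest Itga4, 965 CPM, with 16.1 CPM of Itgb7. Mast cells (lymphocyte 14, 32 cells) had 596 CPM of Itga4 and 430 CPM of Itgb7. Lymphocyte 9 (217 cells) was led by Cd163l1, Blk and Trdc, genes of gamma delta T cells. It had the reverse of the myeloid 11 pattern, with 409 CPM of Itgb7 and 46.0 CPM of Itga4. Lymphocyte 6, led by Il10 and Foxp3, had 320 CPM of Itgb7 and 138 CPM of Itgae, and ILC3-like cells (lymphocyte 10) had 267 CPM of Itgb7 and no Itgae UMI. These are pooled levels, and libraries gave unequal numbers of cells to each sub-cluster.

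**Figure D5:**
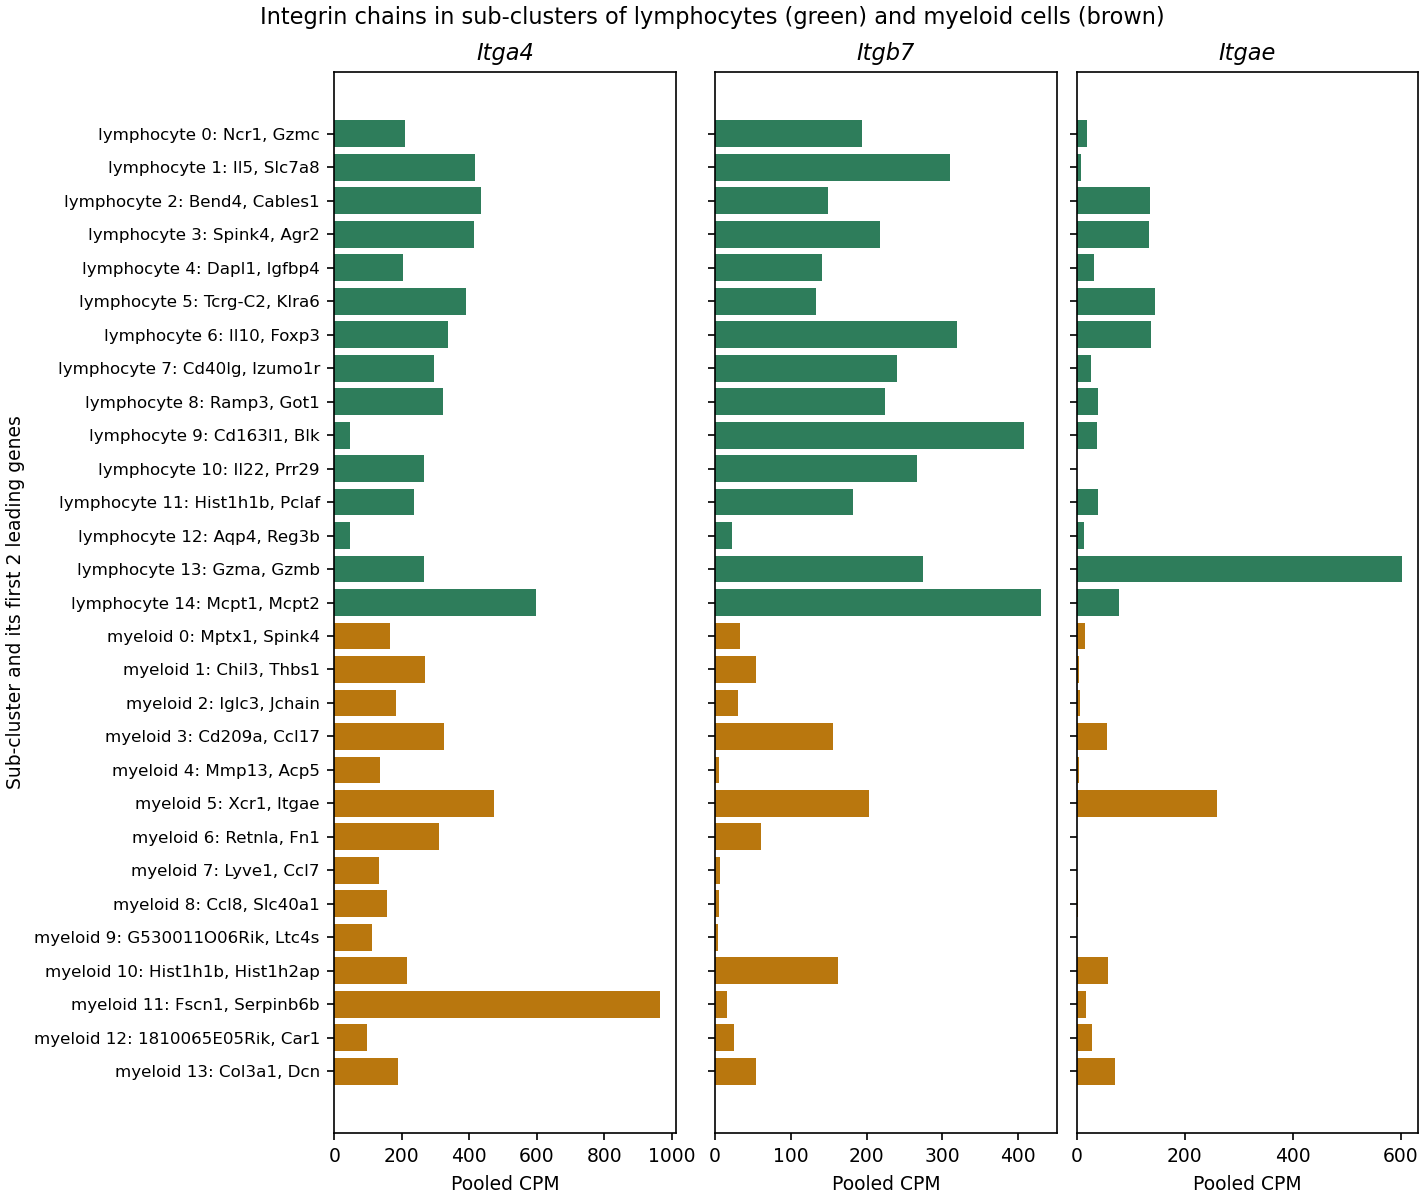
Pooled CPM of Itga4, Itgb7 and Itgae in lymphocyte (green) and myeloid (brown) sub-clusters, each row named with its first 2 leading genes. Itga4 peaks at 965 CPM in myeloid 11, Itgb7 at 430 CPM in lymphocyte 14 and Itgae at 602 CPM in lymphocyte 13.

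Cells with UMIs of both chains were counted per library. Shares thinned to 1000 UMIs per cell leave out cells with fewer UMIs. Itga4 and Itgb7 were found together in 22.9% and 17.0% of T cells in DSS libraries, against 15.1% and 14.8% in control libraries. Thinned to 1000 UMIs per cell, the shares were 2.88% and 4.20% in DSS libraries, against 2.79% and 9.04% in control libraries, and the groups overlapped. ILC2 had 28.8% and 18.5% in DSS libraries, against 25% and 24.6% in control libraries, and thinned 6.37% and 7.56%, against 13.3% and 14.5% on 4 and 10 such cells in control libraries. Plasma cells had 37.8% and 31.0% in DSS libraries, against 29.4% and 34.5% in control libraries, at median depths of 8180 to 14656 UMIs, and thinned 1.09% and 1.20%, against 2.46% and 3.19%. Itgae and Itgb7 were found together in 7.62% and 6.37% of T cells in DSS libraries, against 6.42% and 7.03% in control libraries, and thinned in 0.27% and 2.32%, against 1.59% and 3.01%. In colonocytes Itga4 with Itgb7 was found in at most 0.169% of cells of a library, and Itgae with Itgb7 in none of 9596 cells.

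Summed over all kept cells, 5 of the 9 genes had both DSS libraries above both control libraries, a pattern of 23.3% of the 21050 genes tested. Icam1 stood at 51.9 and 65.8 CPM in DSS libraries, against 11.8 and 28.4 CPM in control libraries (log2 fold change 1.47, SE 0.47, unadjusted p = 0.0155, adjusted p = 0.429, edgeR). Vcam1 stood at 37.0 and 55.9 CPM in DSS libraries, against 8.94 and 16.7 CPM in control libraries (log2 fold change 1.78, SE 0.42, unadjusted p = 0.0035, adjusted p = 0.391). Itga4 had 90.9 and 43.8 CPM in DSS libraries, against 13.8 and 30.4 CPM in control libraries, Itgb7 38.2 and 15.8 CPM, against 4.13 and 12.2 CPM, and Itgae 9.39 and 4.82 CPM, against 1.5 and 2.83 CPM. None of the 9 was called by edgeR (0% of all genes were), all 5 had an unadjusted p under 0.05, beside 10.2% of all genes, and DESeq2 called 1, Vcam1, with 2.12% of all genes. Cell shares moved with these sums. Colonocytes made up 5.14% and 22.1% of kept cells in DSS libraries, against 21.1% and 45.0% in control libraries. T cells made up 9.81% and 8.18% in DSS libraries, against 2.94% and 5.19% in control libraries, and fibroblasts 21.2% and 33.5%, against 18.2% and 17.6%. In bulk sums of this kind more cells of a type and more RNA per cell cannot be told apart.

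Of the 49 further genes of leukocyte adhesion and homing, 1 passed the test in 1 class. Cd44, a hyaluronan receptor and selectin ligand, was lower in epithelial progenitors, at 18.5 and 28.4 CPM in DSS libraries, against 61.7 and 156 CPM in control libraries (log2 fold change -2.08, SE 0.37, adjusted p = 0.0225, edgeR). It was 1 of 29 list genes tested in that class, where 1.33% of all genes were called. Within the class, cluster 8 had 39 and 96 cells in DSS libraries, against 1343 and 433 in control libraries. Cluster 21, led by Hist1h2ap, had 13 and 99 cells in DSS libraries, against 261 and 159 in control libraries. The part of these cell numbers and this makeup in the result was not tested. In fibroblasts 0 of 37 tested list genes were called, 27 had a log2 fold change above 0 and 10 below. The 2 highest were Ccl21a, a lymphatic chemokine for Ccr7 (2.34, at 11.6 and 2.06 CPM in DSS libraries, against 1.75 and 1.15 CPM in control libraries), and Itgb2, the leukocyte beta2 chain that binds ICAM-1 (2.21, at 3.65 and 1.33 CPM, against 0 and 1.03 CPM). The 2 lowest were Itga6, a laminin receptor chain (-1.15), and Ccl28, a mucosal chemokine for plasma cells (-1.03). In T cells 0 of 37 were called, 18 lay above 0 and 19 below. Ccr6, the receptor for Ccl20, was highest at 1.57, with 28.5 and 15.6 CPM in DSS libraries, against 7.49 and 8.30 CPM in control libraries, and Cxcl12 followed at 0.58. Itgax was lowest at -1.32, followed by Klf2, a transcription factor of circulating T cells, at -0.98, with 347 and 191 CPM in DSS libraries, against 759 and 317 CPM in control libraries. In macrophages 0 of 23 were called, with Cxcl12 (0.73) and Cd44 (0.41) highest and Itga6 (-1.31) and Cdh1 (-1.29) lowest. Among the 5 members tested in fibroblasts the median log2 fold change was 0.95, beside -0.01 for all genes, and among the 4 tested in T cells it was -0.15, beside -0.01.

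The genes whose level followed each member most closely were found over 56 sums of a library and a class, as Pearson correlations of log2(CPM + 1) that share library, depth and cell type and carry no test. For Vcam1 they were Cmklr1 (0.921), Cp (0.913) and Fam20c (0.898). For Icam1 they were Wipf1 (0.857), Mndal (0.850) and Ifi203 (0.846), and for Ackr1 Slc10a6 (0.918) and Fez1 (0.914). For Itga4 they were Gng2 (0.896), Dock10 (0.887) and Arhgef6 (0.876), and for Itgb7 Selplg (0.943), Il2rg (0.943) and P2ry10 (0.938). For Itgae they were Gm44135 (0.865), Klrd1 (0.845) and Cd7 (0.825). Selplg encodes the P-selectin ligand of leukocytes. For Madcam1, Sele and Selp none are named: blood endothelium, where they lie, was not among the classes summed.

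The genes lie apart in the GRCm38 genome except for a pair. Sele (chromosome 1, 164048234 to 164057677) and Selp (chromosome 1, 164115264 to 164150026) are neighbours on the plus strand, and Ackr1 is further along (chromosome 1, 173331886 to 173333750, minus strand). Madcam1 lies on chromosome 10 (79664559 to 79668537), Icam1 on chromosome 9 (21015985 to 21028817) and Vcam1 on chromosome 3 (116109949 to 116129688). Itga4 lies on chromosome 2 (79255426 to 79333123), Itgb7 on chromosome 15 (102215995 to 102231944) and Itgae on chromosome 11 (73090583 to 73147446). Madcam1, Sele and Itgb7 overlap no other annotated gene. Icam1, Vcam1, Selp, Itga4 and Itgae each overlap a gene on the opposite strand.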

How the data were processed

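Single-cell RNA was measured in 2 DSS and 2 control libraries of mouse colon. Per the submitters' processing notes, Cell Ranger 6.1.1 and build GRCm38 were used. The labels name version V3 of the 3-prime kit for capture and v2 reagents for libraries, which was not resolved. The deposited values are raw UMI counts per gene and cell, made by the authors. The members and lists were chosen with earlier results of these data known.

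A barcode was kept from 500 UMIs and 250 genes upward if mitochondrial UMIs did not exceed 25% (44356 of 49851). Doublets were predicted per library with Scrublet at 0.8% per 1000 cells (3.03 to 5.38% of cells) and removed, with 279 cells of mostly predicted doublet clusters. Clustering used scanpy 1.11.5 and leidenalg 0.10.2 (2000 variable genes without the 9 members and the 49 list genes, 40 components, 20 neighbours, resolution 1), and sub-clustering 1500 genes, 20 components, 15 neighbours and resolution 0.6. A class needed 3 of its markers at 15% detection and 2-fold enrichment.

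UMIs were summed per library and class with at least 30 cells in each library and tested two-sided with edgeR 4.0.16 (TMM, filterByExpr, quasi-likelihood, group only, Benjamini-Hochberg over all genes, threshold 0.05) in R 4.3.3, with DESeq2 1.42.0 as an alternative. Each edgeR SE was the absolute log2 fold change divided by the square root of the F statistic of the test. A log2 fold change smaller than its SE thus restates a small F statistic. A permutation test of 2 against 2 libraries cannot go below p = 0.333 and was not used. On simulated counts with 200 genes changed 4-fold, 194 were recovered in fibroblasts and 191 in T cells, with 6 and 4 false calls. The simulation gave all genes 1 negative binomial dispersion, 0.05, and changed only genes with at least 200 UMIs. It held no shift shared by the genes of a library. It therefore does not measure how often such changes would be found at the spread of these libraries. Shares of cells were also computed after thinning to 1000 UMIs, which left out cells with fewer. Over all kept cells these numbered 401 and 518 in DSS 1 and DSS 2, against 283 and 770 in control 1 and control 2. Thinned and unthinned shares thus cover different cells. Named were all 9 members in classes of at least 20 CPM, the 3 closest genes per member (1 of them is not reported here), and of the list called genes and the 2 highest and 2 lowest in fibroblasts, T cells and macrophages. Of the other classes in that rule, blood endothelium had too few cells in control 2 for a fit and no dendritic class was named. Gene positions come from the GENCODE M21 annotation.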

Additional observations from a re-analysis of the deposited data

Results flagged for a closer look

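Both DSS libraries lay above both control libraries for a gene in 1 class and below them in another in 4 comparisons, which were picked after the values were seen. In each, the difference between the 2 DSS effects was tested in edgeR with the library as a block and Benjamini-Hochberg adjustment, and none passed. For Icam1 the DSS effect in telocytes exceeded that in cluster 6 by 2.38 on the log2 scale (SE 0.78, unadjusted p = 0.0112, adjusted p = 0.64), where 0.0351% of genes were called. For Icam1 in T cells against cluster 6 the difference was 0.44 (SE 0.28, unadjusted p = 0.161, adjusted p = 0.997; 0% of genes called). For Itgb7 it was 0.75 in B cells against cluster 6 (SE 0.59, unadjusted p = 0.2, adjusted p = 1; 0.154% called) and 0.45 in B cells against plasma cells (SE 0.55, unadjusted p = 0.413, adjusted p = 1; 0.296% called). Cluster 6 differed in makeup between libraries, and the part of this in the differences was not tested.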

How the results depend on the processing

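Of 192 values of 20 log2 fold changes under other settings, 188 kept their direction. These 20 are a chosen part of the member results. Apart from leaving a library out, the settings refit the same libraries, so a kept direction says little about new libraries. The 4 that reversed were Madcam1 in endothelium without DSS replicate 1 (-0.73, range 9.59 at most on leaving out 1 library) and Vcam1 in macrophages at resolution 2 (-0.34), with homing genes left among the variable genes (-0.37) and without DSS replicate 2 (-0.027, up to 0.34 without another library). The cause was not tested. In classes, where 0 members were called, DESeq2 called 1, no low-count filter 3 and the replicate block 4. All-gene shares called in the classes concerned were 3.54% with DESeq2 (goblet cells), 5.07% and 0.635% without the filter (goblet cells, fibroblasts) and, with the block, 2.99% in cluster 6, 2.62% in telocytes, 1.60% in fibroblasts and 0.470% in smooth muscle. Each fit that left out a library kept 1 library in a group, so only its effect sizes are given. In compartments no filter called 2, where 0.279% and 0.516% of all genes were called in the compartments concerned. The replicate block called 1, where 0.580% of all genes were called. In all kept cells DESeq2 called 1, no filter 6 and the block 0. All-gene shares there were 2.12% with DESeq2 and 3.01% without the filter. RLE size factors, a 10% mitochondrial limit, kept doublets and both reclusterings called 0. The replicate numbers name libraries only and give 2 pairs. Same-numbered libraries deviated together, with correlations of 0.214 to 0.644 over 14 classes. With the block, Icam1 in telocytes (2.33) and Vcam1 in fibroblasts (1.33), cluster 6 (-1.55) and smooth muscle were called, and Madcam1 in endothelium (2.45); 5 calls were added in single clusters 1, 2 and 9, where 3.23%, 1.76% and 3.44% of all genes were called. Members seen in at least 5% of the cells of a class numbered 24 when thinned to 1000 UMIs, 38 without thinning and 19 at 500 UMIs. Itga4 with Itgb7 was found in 8.64% of ILC2 when thinned (23.7% unthinned, 3.04% at 500 UMIs) and in 4.12% of T cells (18.8%, 1.22%), and Itgae with Itgb7 in 1.46% of T cells (6.99%, 0.384%). The DSS effects of T cells and macrophages differed for 0 members, also on leaving out each library. The same test of blood endothelium against fibroblasts was not run, since control 2 has 1 blood endothelial cell. Few cells limit the vessel genes, with 3 venous-like cells in DSS 2 and 1 blood endothelial cell in control 2. Intervals cover counting error only.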
